A study of Mus musculus with 10 samples.

Results

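Cytosolic ribosomal proteins are the protein subunits of the ribosome that translates nuclear-encoded mRNA. Their genes were chosen here by symbol: Rpl or Rps with a number and at most one of the letters a, x or l, together with Rpsa, Rplp0, Rplp1 and Rplp2, and with a normalised read count of at least 10 in at least 2 libraries. Of 77 matching symbols, 76 passed that filter, out of 15694 genes tested of 16290 in the deposited table. By symbol 44 of these genes are named for the large subunit and 32 for the small subunit, 1 of which, Rps4l, is annotated as a processed pseudogene.

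The series holds 10 RNA-seq libraries of FVB mouse mammary epithelial cells. The groups were NIC-Prmt1 (n = 3), NIC-Carm1 (n = 3), NIC-Prmt6 (n = 2) and NIC (n = 2). NIC is the genotype that all groups share, and its name is not spelled out in the labels. Per the series' design text, the first 3 groups add transgenic overexpression of one protein arginine methyltransferase, an enzyme that puts methyl groups on arginines of histones and of other proteins. The sources used here do not give the promoter and cell type that drive the transgenes, the age of the mice or whether each library came from a different mouse, so p-values measure only the spread between these libraries. Cells were freed from mammary glands with enzymes and enriched by short spins, which leaves room for other cell types of the gland.

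A ribosome holds one copy of nearly every ribosomal protein, so cells make these proteins in matched amounts and break down unassembled ones. The mRNAs are short, among the most abundant of a cell, and mostly start with a run of pyrimidines (the 5′ terminal oligopyrimidine tract), through which mTOR signalling controls their translation as a set. Myc and RNA polymerase I activity raise ribosome production in growing cells, the growing mammary epithelium included. Several ribosomal proteins also act outside the ribosome: RPL5, RPL11 and RPL23 bind the p53 inhibitor MDM2.

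Libraries held between 21589274 and 30260921 reads. The overexpressed genes checked the labels only in part. Prmt6 read 873 and 909 normalised counts in the NIC-Prmt6 libraries and at most 451 in any other library. Carm1 was higher than in NIC in all 3 other groups, with log2 fold changes of 0.46 to 0.60. Prmt1 was not shown to differ between NIC-Prmt1 and NIC (0.05 ± 0.12, SE; limma adjusted p = 0.784). Group names therefore mean the libraries labelled so. Replicates 2 and 3 of NIC-Carm1 and both NIC-Prmt6 libraries were nearly identical (chi-square over its degrees of freedom 2.65 and 2.41, against 27.2 to 101 for the other 6 pairs within a group). Each count of ribosomal protein genes against NIC is therefore also given with each such pair averaged, and so are counts over the other gene lists of the translation machinery and of large complexes. Cell type markers moved with the groups. Their counts below are without such averaging, so nearly identical libraries of NIC-Carm1 and NIC-Prmt6 enter them as separate libraries. Summed CPM (reads in proportion to the library's reads) of 12 luminal markers were 7194 to 9876 in NIC-Prmt1, 6928 to 8073 in NIC-Carm1, 6596 to 6622 in NIC-Prmt6 and 10096 to 12183 in NIC. Of the 12, 4 fell and 3 rose in NIC-Prmt1 against NIC, 6 fell in NIC-Carm1 and 7 fell in NIC-Prmt6. Sums of 10 fibroblast markers were 5662 to 7349, 3756 to 4177, 12946 to 12967 and 3209 to 3954 in the same groups. Sums of 10 endothelial markers were 2040 to 2845, 1164 to 1360, 2901 to 2911 and 1133 to 1359, and sums of 12 basal and myoepithelial markers were 5311 to 8727, 2957 to 2989, 4415 to 4442 and 2645 to 2800. In NIC-Prmt1 against NIC, 7 of the fibroblast, 10 of the endothelial, 10 of the basal and all 6 pericyte markers rose. In NIC-Carm1 3 pericyte markers and 1 fibroblast marker rose, while 1 fibroblast and 1 basal marker fell, and in NIC-Prmt6 all fibroblast, endothelial and pericyte markers and 3 basal ones rose. Sums of 11 macrophage markers were 304 to 573 in NIC-Prmt1, 538 to 776 in NIC-Carm1, 874 to 892 in NIC-Prmt6 and 257 to 379 in NIC, and 3, 4 and 9 of them rose in the 3 comparisons with NIC. Sums of 8 adipocyte markers were 706 to 1038, 417 to 528, 1458 to 1488 and 303 to 397 in the same groups. Of the 8, 1 rose in NIC-Prmt1, 1 fell in NIC-Carm1 and 2 rose in NIC-Prmt6. Their median log2 fold changes were -0.43, -0.78 and 1.81, below 0 in NIC-Prmt1 and NIC-Carm1 although the sums lay above NIC. Beside these marker counts, 15.2%, 6.65% and 19% of all tested genes rose in NIC-Prmt1, NIC-Carm1 and NIC-Prmt6 against NIC. In the same order, 14.4%, 9.36% and 17.8% of all tested genes fell. The 8 milk genes summed to 39482 in NIC-Carm1 replicate 1 and to 1157 to 6232 in all other libraries. The skin keratinocyte list (5 of its genes at 0 in at least 1 library) summed to 1070 in NIC-Prmt1 replicate 1, to 113 in replicate 3 and to at most 37.1 elsewhere. The part of these cell types in the results below was not tested, and in bulk RNA fewer cells of a type and less RNA per cell cannot be told apart.

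The ribosomal protein genes took a smaller share of all reads in each library of the 3 methyltransferase groups than in either NIC library. The share was 5.17%, 5.89% and 6.72% in NIC-Prmt1, 5.50%, 5.55% and 5.73% in NIC-Carm1, 4.56% and 4.64% in NIC-Prmt6, and 6.81% and 6.94% in NIC. NIC-Prmt1 replicate 3 came close to NIC while replicate 1 lay below every NIC-Carm1 library, so the 3 NIC-Prmt1 libraries spanned most of the range of the series. With SD over libraries, the mean share was 5.92% ± 0.777 for the 3 NIC-Prmt1 libraries, 5.59% ± 0.122 for the 3 NIC-Carm1 libraries, 4.60% ± 0.055 for both NIC-Prmt6 libraries and 6.87% ± 0.093 for both NIC libraries. With at least 1229208 reads in these genes in every library, counting error was small: the exact 95% binomial interval was 4.55% to 4.57% in NIC-Prmt6 replicate 1 and 6.93% to 6.95% in NIC replicate 2, for counting error only. The 2 subunits kept a fixed proportion, with 1.49 to 1.52 large-subunit reads for each small-subunit read in all 10 libraries.

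**Figure D1:**
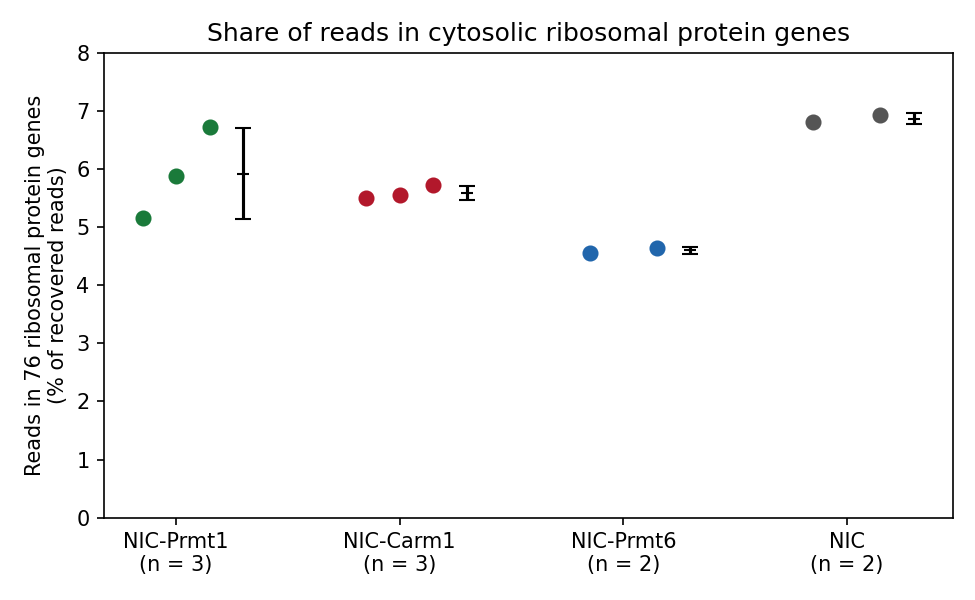
Share of all recovered reads that fell in the 76 cytosolic ribosomal protein genes (vertical axis, percent), by group. Points are libraries and bars are group means with SD (n under each group name): both NIC-Prmt6 libraries lie lowest, at 4.56% and 4.64%, and the NIC-Prmt1 libraries spread from 5.17% to 6.72%.

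The genes moved together across libraries, not only between group means. Relative to each gene's own mean over the 10 libraries, the median ribosomal protein gene stood at -0.17, 0.01 and 0.26 (log2) in the NIC-Prmt1 libraries 1, 2 and 3, at -0.07, -0.14 and -0.10 in NIC-Carm1, at -0.31 and -0.28 in NIC-Prmt6, and at 0.36 and 0.41 in NIC. In 71 of 76 genes (93.4%) NIC-Prmt1 replicate 1 was the lowest of its group and replicate 3 the highest, an order held by 16.3% of all tested genes. The group means ran NIC, NIC-Prmt1, NIC-Carm1, NIC-Prmt6 from high to low in 67 of 76 genes; the exceptions included Rpl8, Rpl15, Rpl34, Rpl41, Rplp2, Rps4l, Rps27 and Rps27l. Both NIC libraries lay above all 8 others in 67 genes (88.2%, against 12.2% of all tested genes), and both NIC-Prmt6 libraries lay below all 8 others in 56 genes (73.7%, against 11.1%). Neighbours in that order were not all separated: NIC-Prmt1 and NIC-Carm1 libraries overlapped in 62 of 76 genes, as in 57.0% of all tested genes.

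**Figure D2:**
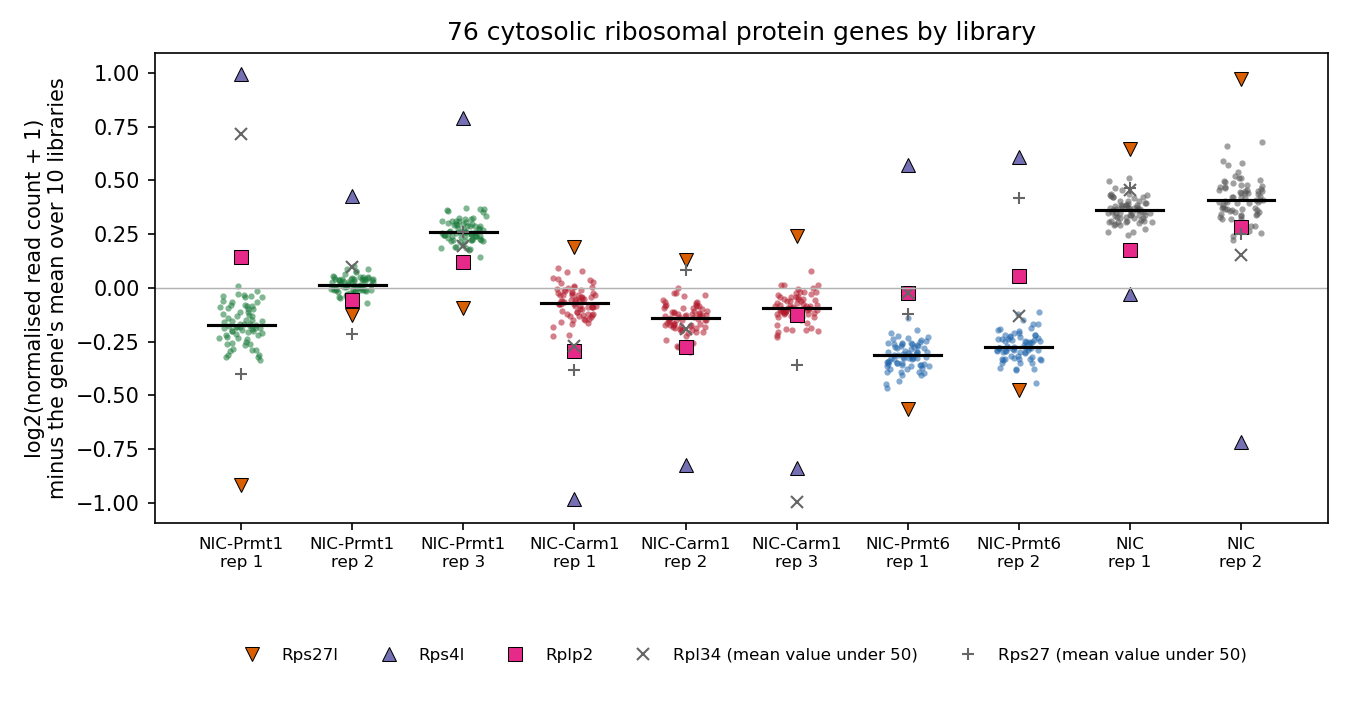
Level of each of the 76 genes in each library, as log2(normalised read count + 1) minus the gene's mean over 10 libraries (vertical axis), with libraries along the horizontal axis. Small points are genes and black bars are their medians, from -0.31 in NIC-Prmt6 replicate 1 to 0.41 in NIC replicate 2; Rps27l, Rps4l, Rplp2 and the 2 genes with mean values under 50 are drawn with their own symbols and lie off the main cloud in several libraries.

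The level of the genes differed widely. Mean normalised read counts were at least 1000 in 73 of 76 genes, up to 58898, and transcripts were 271 to 3706 bases long with a median of 740. Per kilobase of the principal transcript, Rpl41, which encodes the smallest ribosomal protein, was highest, at 64844 normalised reads per kilobase in NIC-Prmt1, 65100 in NIC-Carm1, 53518 in NIC-Prmt6 and 90067 in NIC. The stalk protein gene Rplp1 followed, at 59197, 53684, 42985 and 83028 in the same groups. At the other end stood Rpl34 at 107, 60.2, 78.2 and 103, Rps27 at 88.5, 81.7, 107 and 122, and Rps4l at 218, 69.2, 194 and 102. Just outside the filter was Rpl30, a large-subunit gene whose normalised read count was 2.60 to 8.22 over the 10 libraries; just inside it was Rps27, at 24.4 to 45.4. Ribosomal protein genes have many processed copies in the mouse genome, and how reads that match several places were counted is not given in the sources used here, so the level of any single member, and above all of these low ones, is uncertain.

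In NIC-Prmt6 against NIC almost the whole set was lower. A total of 72 of 76 genes fell and 1 rose (limma on log2(value + 1), Benjamini-Hochberg adjusted p below 0.05), where 17.8% of all 15694 tested genes fell and 19% rose. The median log2 fold change was -0.68 (0.625-fold), against -0.01 over all tested genes, and the 10th and 90th percentiles of the set were -0.83 and -0.52. The libraries did not overlap, lower in NIC-Prmt6, in 74 of 76 genes, as in 38.6% of all tested genes; 1 gene (Rps4l) lay higher without overlap, as did 38.1% of all tested genes. Of the large-subunit genes 42 of 44 fell (median -0.70), and of the small-subunit genes 30 of 32 (median -0.66). The lower count was 37 without NIC-Prmt6 replicate 1 and 10 with nearly identical libraries averaged, both of which leave a single NIC-Prmt6 library whose spread is taken from the other groups. The median stayed between -0.72 and -0.65 when any one library was left out.

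The largest falls in NIC-Prmt6 were in Rps27l, Rps14, Rplp1 and Rpl35a. Rps27l is a paralog of Rps27 that p53 induces, and it is taken up with the other departing genes below. Rps14 encodes a small-subunit protein whose loss of 1 copy causes the red cell defect of the human 5q- syndrome. It read 17505 and 17578 in NIC-Prmt6 and 34028 and 38169 in NIC, a log2 fold change of -1.04 ± 0.18 (SE; adjusted p = 0.00197). Rplp1 read 20777 and 22122 in NIC-Prmt6, against 39623 and 43239 in NIC (-0.95 ± 0.16, adjusted p = 0.00207). Rpl35a, a large-subunit gene mutated in some Diamond-Blackfan anaemia, read 7837 and 8210 in NIC-Prmt6 and 14667 and 15408 in NIC (-0.91 ± 0.15, adjusted p = 0.00173). In each of these 3 genes both NIC-Prmt6 libraries lay well below the lower NIC library. The smallest called falls among abundant genes included those of Rpl8, a protein near the peptidyl transferase centre (22016 and 22314 in NIC-Prmt6, 29361 and 30786 in NIC; -0.44 ± 0.13, adjusted p = 0.0258), and Rps6, the target of S6 kinase (-0.51 ± 0.14, adjusted p = 0.0162). The Rpl8 call ended without either NIC or either NIC-Prmt6 library (adjusted p from 0.0624 to 0.132). Rplp2, Rpl34 and Rps27 did not pass the test.

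**Figure D3:**
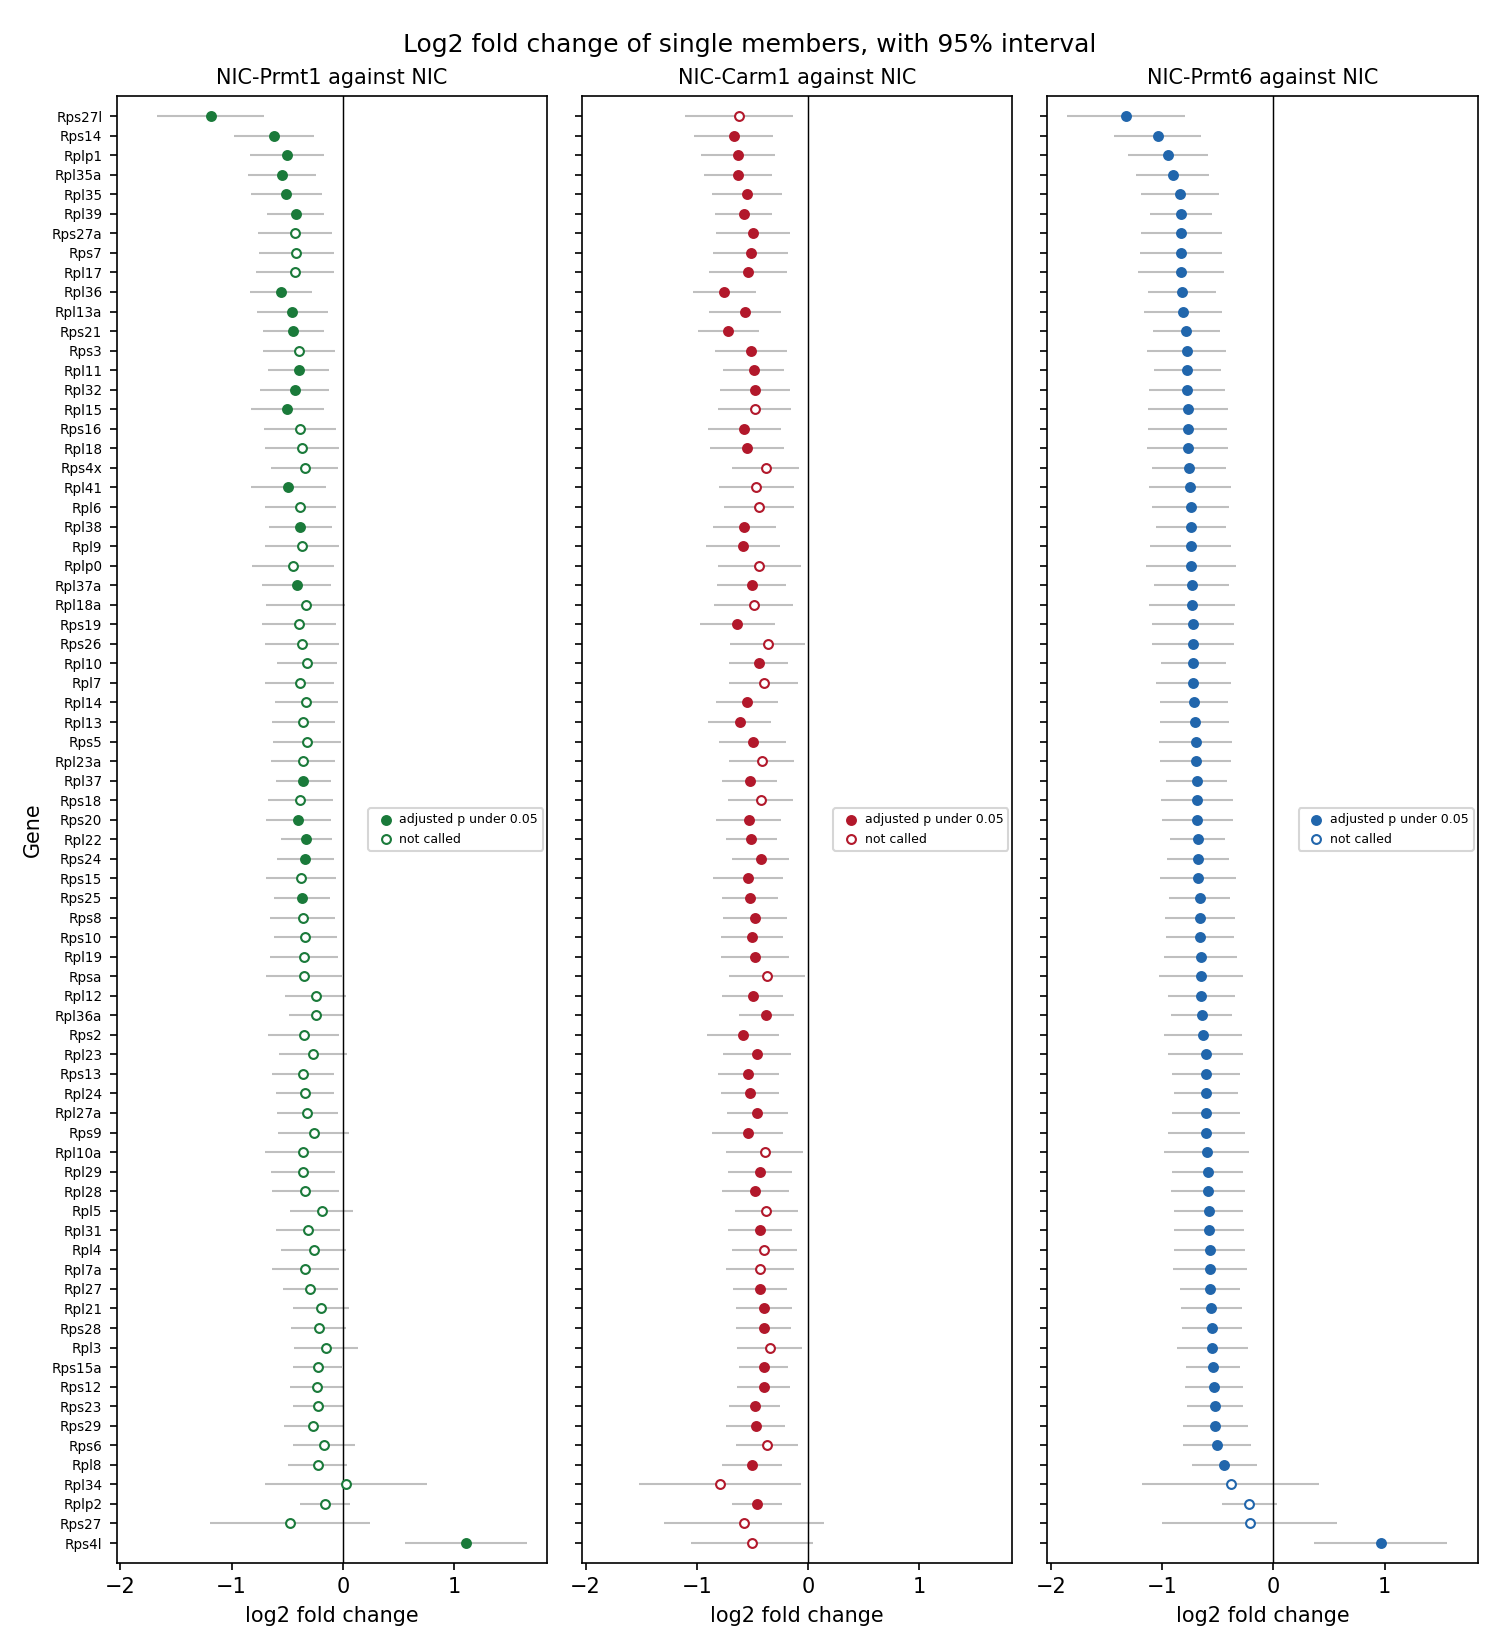
Log2 fold change (horizontal axis) of 74 of the 76 genes (rows, ordered by NIC-Prmt6 against NIC), with 95% intervals, in the 3 comparisons with NIC. Filled points passed an adjusted p of 0.05 (of those drawn, 20 lower and 1 higher in NIC-Prmt1, 53 lower in NIC-Carm1, 70 lower and 1 higher in NIC-Prmt6): most points lie in a narrow band left of 0, with Rps27l further left and Rps4l to the right in NIC-Prmt1 and NIC-Prmt6.

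NIC-Carm1 against NIC gave the same direction with a smaller median. All 76 fold changes were below 0 and in all 76 genes every NIC-Carm1 library lay below both NIC libraries, where 24.5% of all tested genes did. The test called 55 of 76 lower and 0 higher (0 higher also at an unadjusted p under 0.05, with edgeR and with DESeq2), against 9.36% of all tested genes lower and 6.65% higher. The median log2 fold change was -0.49 (0.712-fold), against 0.00 over all tested genes, with 31 of 44 large-subunit genes lower (median -0.48) and 24 of 32 small-subunit genes (median -0.50). The called falls furthest from 0 were in Rpl36 (-0.75 ± 0.13, adjusted p = 0.0055), Rps21 (-0.72 ± 0.12, adjusted p = 0.00573), Rps14 (-0.67 ± 0.16, adjusted p = 0.022) and Rps19 (-0.63 ± 0.15, adjusted p = 0.0207), the last the gene most often mutated in Diamond-Blackfan anaemia. Rps21 read 6701, 5996 and 6406 in NIC-Carm1 and 9929 and 11019 in NIC. Nearest to 0 lay Rpl3, a protein of the peptidyl transferase centre, at -0.35 ± 0.13 (adjusted p = 0.0985), Rps26 at -0.36 ± 0.15 (adjusted p = 0.131) and Rpsa, also known as the laminin receptor, at -0.37 ± 0.15 (adjusted p = 0.133). The calls of Rps14 and Rps19 ended without either NIC library or NIC-Carm1 replicate 2 or 3 (adjusted p from 0.0646 to 0.119). Leaving out a NIC library leaves a single one, whose spread is then taken from the other groups. In those fits the part of the set called lower was near or below that of all tested genes. The number of genes called lower was 5 and 9 without NIC-Carm1 replicate 2 or 3 (4.41% and 4.44% of all tested genes). It was 17 without either NIC-Prmt6 library (6.07%). It was 12 after rescaling to the library total (5.12%) and 0 with nearly identical libraries averaged (1.62%). With averaging, limma gave 59 genes of the set lower at an unadjusted p under 0.05. The median stayed between -0.52 and -0.46 without any one library and was -0.31 after rescaling to the total, which moved the median of all genes by 0.18.

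In NIC-Prmt1 against NIC fewer genes passed the test. Of 76 genes 21 fell and 1 rose, against 14.4% lower and 15.2% higher among all tested genes. The median log2 fold change was -0.36 (0.782-fold), against 0.00 over all tested genes; 14 of 44 large-subunit and 7 of 32 small-subunit genes fell, with medians of -0.35 and -0.36. Every NIC-Prmt1 library lay below both NIC libraries in 67 of 76 genes, as in 27.1% of all tested genes, and above both in 1 (Rps4l), as in 28.2%. The genes whose groups overlapped included Rpl3, Rpl5, Rpl23, Rpl34, Rps6, Rps9 and Rps27. After Rps27l, the largest falls were in Rps14 (-0.62 ± 0.16, adjusted p = 0.0181), Rpl36 (-0.56 ± 0.13, adjusted p = 0.0107) and Rpl35a (-0.55 ± 0.14, adjusted p = 0.0154). Rps14 read 19099.9, 23689.9 and 28543 in NIC-Prmt1 and 34028 and 38169 in NIC. Rpl3 (-0.15 ± 0.13, adjusted p = 0.401), Rplp2 (-0.16 ± 0.10, adjusted p = 0.251) and Rps6 (-0.17 ± 0.12, adjusted p = 0.319) were nearest to 0 among the abundant genes. The calls of Rps14 and Rpl35a ended without either NIC library (adjusted p from 0.0514 to 0.114), and that of Rpl36 without NIC replicate 2 (0.0862). Without either NIC library, a smaller part of the set than of all tested genes was called lower. The count of lower genes was 6, 9 and 65 without NIC-Prmt1 replicate 1, 2 or 3. In those fits 11%, 15.8% and 13% of all tested genes were lower. The count was 9 without NIC-Carm1 replicate 2 or 3 (12.1% of all tested genes) and 7 without either NIC-Prmt6 library (10.8% and 10.9%). It was 4 after rescaling to the library total (8.75%) and 2 with nearly identical libraries averaged (7.6%). A larger part of the set than of all tested genes was called lower without NIC-Prmt1 replicates 1 and 3 together, the libraries with the highest sums of skin keratinocyte markers. That last fit holds a single NIC-Prmt1 library, and those without a NIC library a single NIC library, whose spread is taken from the other groups. The median lay between -0.47 and -0.25 without any one library.

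The 3 comparisons with NIC share the same 2 NIC libraries, so their calls are not independent. In all 3 of them 18 genes fell, among them Rpl11, Rpl13a, Rpl22, Rpl32, Rpl35, Rpl35a, Rpl36, Rpl37, Rpl37a, Rpl38, Rpl39, Rplp1, Rps14, Rps20, Rps21, Rps24 and Rps25. Another 36 fell in NIC-Carm1 and NIC-Prmt6 and were not called in NIC-Prmt1, and 2 (Rpl34 and Rps27) were called in none. Of all tested genes, 3.39% fell in all 3, 0.72% fell in NIC-Carm1 and NIC-Prmt6 without a call in NIC-Prmt1, and 49.7% were called in none.

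Between methyltransferase groups few genes of the set were called. NIC-Prmt1 against NIC-Carm1 had a median log2 fold change of 0.14, with 2 genes higher, Rps4l and Rplp2, where 14.9% of all tested genes were higher. Limma called 0 lower (1 at an unadjusted p under 0.05, 0 with edgeR and 1 with DESeq2; 11.8% of all tested genes were lower). NIC-Prmt6 against NIC-Carm1 had a median of -0.17, with Rps4l higher (20.9% of all tested genes) and Rps27l and Rps4x lower (18.4%). NIC-Prmt6 lay below NIC-Carm1 without overlap in 62 genes, against 34.6% of all tested genes. Its count of lower genes was 0 without any one of NIC-Carm1 replicates 2 and 3 and both NIC-Prmt6 libraries, and with nearly identical libraries averaged (0 also at an unadjusted p under 0.05). It was 1 without NIC-Prmt1 replicate 2, and 11 and 16 without NIC-Prmt1 replicate 3 or 1. In these last 2 fits 18% and 20.8% of all tested genes were lower. The count was 31 with the 2 groups fitted alone, where 22.1% of all tested genes were lower. NIC-Prmt1 against NIC-Prmt6 had a median of 0.33, and NIC-Prmt1 lay above without overlap in 65 genes, against 22.4% of all tested genes. Limma called 0 higher and 0 lower (53 higher and 0 lower at an unadjusted p under 0.05). The counts were 0 and 0 with edgeR and 31 and 0 with DESeq2, where DESeq2 called 835 of 15694 tested genes higher. They rest on both NIC-Prmt6 libraries, which were nearly identical, and averaging these leaves a single NIC-Prmt6 library. Limma called 2.54% of all tested genes higher and 4.94% lower. Without NIC-Prmt1 replicate 1, 55 genes of the set were called higher, and without NIC-Carm1 replicate 1, 4 were. In those fits 947 of 15573 and 707 of 15645 tested genes were called higher.

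A shared start sequence is what textbooks give for these genes, so the DNA around the start was read for 56 of the 76 genes that matched a RefSeq promoter window (GRCm38.p6, 250 bases before to 50 after the start). The 30 bases centred on the start are shown for genes with long, middling and short pyrimidine runs and for the genes the results turn on, in lower case with the longest run of C or T in capitals; the first transcribed base of each is the sixteenth.
Rps18 (chr17:33955651-33955680, minus strand): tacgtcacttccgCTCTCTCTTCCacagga
Rpl28 (chr7:4792950-4792979, plus strand): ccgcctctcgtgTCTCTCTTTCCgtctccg
Rplp2 (chr7:141447636-141447665, plus strand): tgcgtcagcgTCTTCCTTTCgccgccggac
Rps27l (chr9:66946071-66946100, plus strand): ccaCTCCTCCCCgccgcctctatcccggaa
Rps21 (chr2:180257364-180257393, plus strand): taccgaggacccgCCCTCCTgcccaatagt
Rplp0 (chr5:115559452-115559481, plus strand): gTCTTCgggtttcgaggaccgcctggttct
Rpl35a (chr16:33056438-33056467, plus strand): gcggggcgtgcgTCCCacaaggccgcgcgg

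A run of at least 6 pyrimidines, read on the sense strand within these 30 bases, was present in 32 of 56 genes (57.1%), against 28.9% of 27025 RefSeq windows, and the median longest run was 6.5 bases against 4 over all windows. Over the 300 bases on both strands, CCGGAAG (an ETS factor motif) was present in 37.5% of the genes against 9.18% of all windows, GGGCGG (an Sp1 motif) in 60.7% against 36.1%, AANATGGC (a YY1 motif) in 17.9% against 6.22%, and TATAAA in 8.93% against 14.2%. A match is a description of the letters and not a site. The longest run could also lie before the first transcribed base, as printed for Rps27l and Rplp0. Runs of at least 6 are therefore not a count of tracts at the transcript start, and the split below does not separate genes by such a tract. The median log2 fold change of the 32 genes with a run of at least 6 and of the 24 with a shorter one was -0.35 and -0.36 in NIC-Prmt1 against NIC, -0.50 and -0.48 in NIC-Carm1, and -0.66 and -0.70 in NIC-Prmt6. Rplp2, with a run of 10, and Rpl35a, with a run of 4, stood near opposite ends of the changes in NIC-Prmt6, at -0.21 and -0.91.

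The stalk proteins recruit elongation factors to the ribosome, and the calls of their 3 genes differed. Rplp0 was called lower in NIC-Prmt6 against NIC, Rplp2 in NIC-Carm1 against NIC and Rplp1 in all 3 comparisons with NIC. Rplp0, whose protein anchors the stalk, read 47385, 55929.9 and 68119.5 in NIC-Prmt1, 60959, 54581 and 55489 in NIC-Carm1, 46005 and 46272 in NIC-Prmt6, and 76699 and 77539 in NIC. Every library of the 3 groups lay below both NIC libraries, and Rplp0 fell in NIC-Prmt6 (-0.74 ± 0.18, adjusted p = 0.011) and was not called in NIC-Prmt1 (-0.45 ± 0.17, adjusted p = 0.0665) or NIC-Carm1 (-0.44 ± 0.17, adjusted p = 0.102). The Rplp0 call ended without NIC replicate 2 or either NIC-Prmt6 library (adjusted p = 0.0564, 0.0737 and 0.07). Rplp1 fell in all 3, with -0.50 ± 0.15 in NIC-Prmt1 (adjusted p = 0.03) and -0.63 ± 0.15 in NIC-Carm1 (adjusted p = 0.0206) besides the value in NIC-Prmt6 given above. Its NIC-Carm1 call ended without either NIC library or NIC-Carm1 replicate 2 or 3, and its NIC-Prmt1 call without either NIC library, NIC-Prmt1 replicate 1 or 2 or either NIC-Prmt6 library (adjusted p from 0.054 to 0.154). Rplp2 read 10511, 9151 and 10369 in NIC-Prmt1, 7779, 7877 and 8723 in NIC-Carm1, 9358 and 9906 in NIC-Prmt6, and 10762 and 11582 in NIC. Its NIC-Carm1 libraries were the lowest of the series, and of the comparisons with NIC it was called lower in that one (-0.46 ± 0.10, adjusted p = 0.0157), with -0.16 ± 0.10 in NIC-Prmt1 (adjusted p = 0.251) and -0.21 ± 0.11 in NIC-Prmt6 (adjusted p = 0.155). That NIC-Carm1 call ended without NIC replicate 1 or 2 or NIC-Carm1 replicate 2, with adjusted p-values of 0.0594, 0.0886 and 0.0616. Rplp2 was higher in NIC-Prmt1 than in NIC-Carm1 (0.30 ± 0.09, adjusted p = 0.0345), a call that ended without NIC-Prmt1 replicate 1 or 3, NIC-Carm1 replicate 1 or 2 or either NIC-Prmt6 library (adjusted p from 0.0637 to 0.109).

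Rpl5, Rpl11 and Rpl23, which are among the genes whose products bind MDM2, fell in NIC-Prmt6. Rpl11 read 12894, 15116 and 17077 in NIC-Prmt1, 14647, 13214 and 14168 in NIC-Carm1, 11304 and 11678 in NIC-Prmt6, and 19277 and 20038 in NIC. No library of the 3 groups reached NIC, and Rpl11 fell in all 3 (-0.40 ± 0.12, adjusted p = 0.0361, in NIC-Prmt1; -0.49 ± 0.12, adjusted p = 0.0259, in NIC-Carm1; -0.77 ± 0.14, adjusted p = 0.00229, in NIC-Prmt6). Rpl5 fell in NIC-Prmt6 (-0.58 ± 0.14, adjusted p = 0.00972), with -0.19 ± 0.13 in NIC-Prmt1 (adjusted p = 0.281) and -0.37 ± 0.13 in NIC-Carm1 (adjusted p = 0.073). In NIC-Prmt1 replicate 3 Rpl5 read 35169, between the 34631 and 35997 of the NIC libraries. Rpl23 fell in NIC-Carm1 (-0.46 ± 0.14, adjusted p = 0.048) and NIC-Prmt6 (-0.61 ± 0.15, adjusted p = 0.0113). Its NIC-Prmt6 call ended without NIC replicate 2 or either NIC-Prmt6 library, and its NIC-Carm1 call without any one library but NIC-Prmt1 replicates 1 and 3 (adjusted p from 0.0577 to 0.181). The Rpl11 call in NIC-Prmt1 ended without any one of both NIC libraries, NIC-Prmt1 replicates 1 and 2, NIC-Carm1 replicates 2 and 3 and both NIC-Prmt6 libraries (adjusted p from 0.0528 to 0.153), and that in NIC-Carm1 without any one of both NIC libraries, NIC-Carm1 replicates 2 and 3 and both NIC-Prmt6 libraries (0.0545 to 0.115). The Rpl5 call in NIC-Prmt6 ended without either NIC-Prmt6 library (0.0737 and 0.061).

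The proteins of 3 members are known substrates of arginine methyltransferases: RPS3 of PRMT1, RPS2 of PRMT3 and RPS10 of PRMT5. Their mRNAs fell in NIC-Carm1 and NIC-Prmt6. Rps3 read 26369, 29087 and 36185 in NIC-Prmt1, 30063, 26027 and 27741 in NIC-Carm1, 23005 and 23487 in NIC-Prmt6, and 39174 and 40488 in NIC, all 8 below NIC. Its log2 fold change was -0.78 ± 0.16 in NIC-Prmt6 (adjusted p = 0.00486) and -0.51 ± 0.15 in NIC-Carm1 (adjusted p = 0.0392), and it was at -0.40 ± 0.15 in NIC-Prmt1 (adjusted p = 0.0641). Rps2 and Rps10 likewise fell in NIC-Prmt6 (-0.63 ± 0.16 and -0.66 ± 0.14) and NIC-Carm1 (-0.58 ± 0.14 and -0.50 ± 0.13) and were not called in NIC-Prmt1 (-0.35 ± 0.14, adjusted p = 0.0906, and -0.34 ± 0.13, adjusted p = 0.069). The ubiquitin fusion gene Rps27a fell in NIC-Prmt6 (-0.83 ± 0.16, adjusted p = 0.00413) and NIC-Carm1 (-0.50 ± 0.15, adjusted p = 0.048). The NIC-Carm1 calls of Rps2, Rps3, Rps10 and Rps27a ended without any one of both NIC libraries, NIC-Carm1 replicates 2 and 3 and both NIC-Prmt6 libraries (adjusted p from 0.0543 to 0.171), that of Rps27a also without NIC-Prmt1 replicate 2. The NIC-Prmt6 call of Rps2 ended without NIC replicate 2 or either NIC-Prmt6 library, and that of Rps10 without NIC-Prmt6 replicate 1. With nearly identical libraries averaged, which leaves a single NIC-Prmt6 library, the NIC-Prmt6 calls of Rps2, Rps3, Rps10 and Rps27a ended. Their log2 fold changes there were -0.63, -0.78, -0.66 and -0.83.

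A few genes departed from the set. To measure this, log2 values were set so that the median ribosomal protein gene was level in every library, a quantity chosen after the data were seen, and the same test was run over all genes. Of 76 genes, 1 was above and 1 below the median member in NIC-Prmt1 against NIC, 0 and 0 in NIC-Carm1 against NIC, and 2 and 2 in NIC-Prmt6 against NIC, where in the first and last of these 28.0% and 53.9% of all tested genes were above it and 3.30% and 2.13% below. In NIC-Carm1 against NIC 40% of all tested genes were above it and 1.69% below. The genes were Rps4l and Rplp2 above and Rps27l and Rps14 below.

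Rps27l (ENSMUSG00000036781.13, chr9:66946086-66949516, plus strand, 4 exons in the principal transcript, protein coding) read 986, 1709 and 1749.6 in NIC-Prmt1, 2125, 2041 and 2202 in NIC-Carm1, 1262 and 1343 in NIC-Prmt6, and 2916 and 3659 in NIC. All 8 libraries lay below both NIC libraries, with NIC-Carm1 above all NIC-Prmt1 and NIC-Prmt6 libraries, unlike the order of the set. It fell in NIC-Prmt1 (-1.19 ± 0.22, adjusted p = 0.00436) and NIC-Prmt6 (-1.33 ± 0.24, adjusted p = 0.00259), and both calls held in all 23 alternatives (adjusted p up to 0.0429 and 0.0408); in NIC-Carm1 it was at -0.62 ± 0.22 (adjusted p = 0.079). Relative to the median member it was lower in NIC-Prmt1 (-0.83 ± 0.17, adjusted p = 0.00576, called in 10 of 11 settings) and in NIC-Prmt6 (-0.64 ± 0.19, adjusted p = 0.0132, 7 of 11 settings), and at -0.13 ± 0.17 in NIC-Carm1 (adjusted p = 0.537). It was also lower in NIC-Prmt6 than in NIC-Carm1 (-0.70 ± 0.22, adjusted p = 0.0277), a call that ended without NIC-Carm1 replicate 2 or 3 or either NIC-Prmt6 library (adjusted p = 0.0531, 0.0685, 0.144 and 0.103). Its paralog Rps27, with 24.4 to 45.4 normalised reads, was called in no comparison.

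Rps4l (ENSMUSG00000063171.4, chr6:148354656-148355598, plus strand, 1 exon) is annotated in GENCODE M21 as a transcribed processed pseudogene, named for its likeness to the small-subunit gene Rps4x on chromosome X, and was the one member that rose against NIC. It read 203, 137 and 176 in NIC-Prmt1, 50.7, 56.7 and 56.2 in NIC-Carm1, 151 and 155 in NIC-Prmt6, and 99.2 and 61.1 in NIC. NIC-Prmt1 and NIC-Prmt6 lay above both NIC libraries and NIC-Carm1 below both. It rose in NIC-Prmt1 (1.11 ± 0.25, adjusted p = 0.00957) and NIC-Prmt6 (0.96 ± 0.27, adjusted p = 0.0194), and was at -0.51 ± 0.25 in NIC-Carm1 (adjusted p = 0.189). Without NIC replicate 2 those 2 calls ended (adjusted p = 0.0797 and 0.137), as did the NIC-Prmt1 call without NIC-Prmt1 replicates 1 and 3 together (0.147) and the NIC-Prmt6 call without either NIC-Prmt6 library (0.0896 and 0.0987). Against NIC-Carm1 it was higher in NIC-Prmt1 (1.62 ± 0.22, adjusted p = 0.00178) and in NIC-Prmt6 (1.47 ± 0.25, adjusted p = 0.00169). Rps4x itself read 32126, 38767 and 41379 in NIC-Prmt1, 34396, 35870.2 and 38606 in NIC-Carm1, 27545 and 28137 in NIC-Prmt6, and 47194 and 47127 in NIC, and fell in NIC-Prmt6 (-0.76 ± 0.15, adjusted p = 0.004). That Rps4x call ended with nearly identical libraries averaged (-0.76), which leaves a single NIC-Prmt6 library. Whether reads of Rps4l and Rps4x were counted for each other was not tested.

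**Figure D4:**
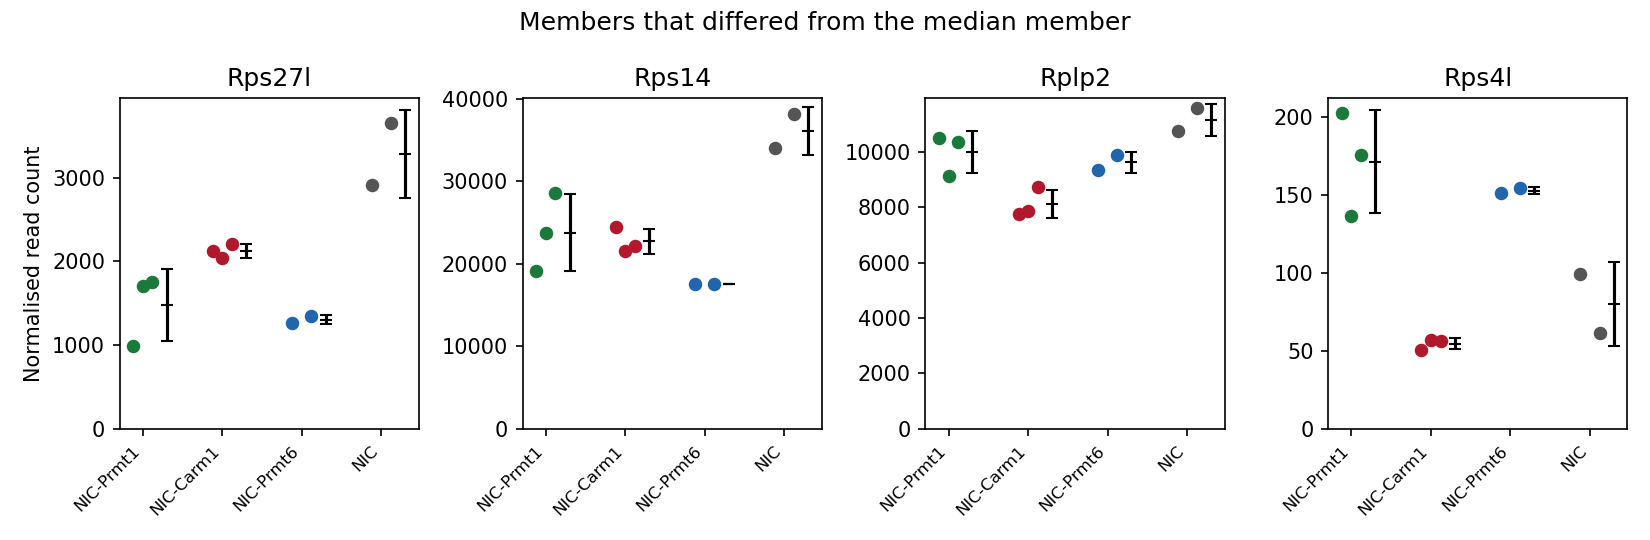
Normalised read count (vertical axis, from 0) of Rps27l, Rps14, Rplp2 and Rps4l by group. Points are libraries and bars are means with SD (n = 3 for NIC-Prmt1 and NIC-Carm1, 2 for NIC-Prmt6 and NIC): Rps27l is 1262 and 1343 in NIC-Prmt6, Rplp2 is lowest in NIC-Carm1, and Rps4l is 137 to 203 in NIC-Prmt1 and at most 56.7 in NIC-Carm1.

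Relative to the median member, Rplp2 was above in NIC-Prmt6 against NIC (0.47 ± 0.15, adjusted p = 0.0241, called in 6 of 11 settings) and Rps14 was below (-0.36 ± 0.12, adjusted p = 0.0241, 7 of 11). Rps4l was above in NIC-Prmt6 (1.64 ± 0.32, adjusted p = 0.00169, 11 of 11) and in NIC-Prmt1 (1.46 ± 0.29, adjusted p = 0.00502, 10 of 11).

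Of the ribosomal protein genes that the symbol rule leaves out, all 6 tested ones fell in NIC-Prmt6, 4 in NIC-Carm1 and 3 in NIC-Prmt1, with medians of -0.67, -0.51 and -0.37. They include Fau, a ubiquitin-like fusion gene, which fell in NIC-Prmt6 (-0.67 ± 0.16, adjusted p = 0.00917) and NIC-Carm1 (-0.59 ± 0.14, adjusted p = 0.0229). Rpl7l1, a paralog of Rpl7, fell in NIC-Prmt1 (-0.65 ± 0.08, adjusted p = 8.79e-04), NIC-Carm1 (-0.70 ± 0.08, adjusted p = 0.00111) and NIC-Prmt6 (-0.78 ± 0.09, adjusted p = 2.94e-04).

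Other genes of the translation machinery gave these counts, to be read beside the 14.4%, 9.36% and 17.8% of all tested genes that were lower in NIC-Prmt1, NIC-Carm1 and NIC-Prmt6. A list of 13 genes held elongation factors together with Eef1e1, Naca and Btf3 (the last 2 of the nascent polypeptide-associated complex), Tpt1 and the eEF2 kinase gene Eef2k. Of the 13, 2 fell (Eef1e1 and Naca) and 1 rose (Eef1a2) in NIC-Prmt1, and 3 fell (Eef1d, Eef1g and Btf3) and 1 rose (Eef2k) in NIC-Carm1. In NIC-Prmt6 7 fell, Naca, Btf3 and Tpt1 among them. The medians of the list were -0.26, -0.34 and -0.51 in NIC-Prmt1, NIC-Carm1 and NIC-Prmt6. Eef1d, part of the exchange factor of eEF1A, fell in NIC-Carm1 (-0.41 ± 0.09, adjusted p = 0.0182) and NIC-Prmt6 (-0.58 ± 0.10, adjusted p = 0.00243). Eef1a1 was at -0.52 ± 0.25 in NIC-Prmt6 (adjusted p = 0.125). Of 35 initiation factor genes 12, 15 and 17 fell in NIC-Prmt1, NIC-Carm1 and NIC-Prmt6 and 0, 0 and 1 rose (medians -0.26, -0.34 and -0.38). Eif1ax, which helps scan for the start codon, fell in all 3 (-0.69 ± 0.08, -0.57 ± 0.08 and -0.84 ± 0.09; adjusted p = 7.95e-04, 0.00283 and 2.29e-04).

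Of 43 ribosome biogenesis genes, 18 fell in NIC-Prmt1, 19 in NIC-Carm1 and 11 in NIC-Prmt6 (0, 1 and 0 rose), with medians of -0.33, -0.39 and -0.15. In NIC-Prmt6 against NIC-Carm1, 13 of them rose and 4 fell (median 0.20), where 20.9% of all tested genes rose and 18.4% fell. The ribosomal protein genes had a median of -0.17 in that comparison. The nucleolar helicase gene Ddx18 fell in all 3 comparisons with NIC (-0.54 ± 0.09, -0.56 ± 0.09 and -0.54 ± 0.10; adjusted p = 0.00277, 0.00408 and 0.00251 in NIC-Prmt1, NIC-Carm1 and NIC-Prmt6). Of 15 RNA polymerase I genes 5, 3 and 4 fell in the same order and 0 rose (medians -0.32, -0.12 and -0.28). The one furthest from 0 in each was Cd3eap, a polymerase I subunit gene, with mean normalised read counts and SD of 561 ± 68.5 in NIC-Prmt1, 779 ± 21.0 in NIC-Carm1, 523 ± 0.94 in NIC-Prmt6 and 1385 ± 25.1 in NIC.

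Among 22 regulators of ribosome production by mTOR and Myc, 9 fell and 0 rose in NIC-Prmt1, 4 fell and 2 rose in NIC-Carm1, and 7 fell and 3 rose in NIC-Prmt6, with medians of -0.25, -0.03 and -0.01. Eif4ebp1, a repressor of cap-dependent initiation that mTOR phosphorylates, had mean normalised read counts and SD of 663 ± 132 in NIC-Prmt1, 848 ± 117 in NIC-Carm1, 717 ± 59.2 in NIC-Prmt6 and 1935 ± 2.69 in NIC, and fell in all 3 (-1.56 ± 0.17, -1.20 ± 0.17 and -1.43 ± 0.19; adjusted p = 5.48e-04, 0.00272 and 5.36e-04). Rheb, the small GTPase that switches mTORC1 on, fell in all 3 as well (-0.49 ± 0.08, -0.63 ± 0.08 and -0.48 ± 0.09; adjusted p = 0.00289, 0.00176 and 0.00294). Myc fell in NIC-Carm1 (-0.72 ± 0.14, adjusted p = 0.00806). It read 9689 and 9846 in NIC-Prmt6, above the 8402 and 6546 of NIC. The NIC-Prmt1 libraries, at 8555, 6538 and 7057, overlapped NIC. Of 9 host genes of small nucleolar RNAs, whose transcripts also begin with pyrimidines, 2, 4 and 3 fell and 0 rose, and Snhg17 fell in all 3 (-0.68 ± 0.14, -0.64 ± 0.14 and -0.64 ± 0.15; adjusted p = 0.00683, 0.0154 and 0.01).

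Genes of other large protein complexes gave lower counts above the share of all tested genes in NIC-Prmt1 and NIC-Prmt6; in NIC-Carm1 this held for the proteasome, while mitochondrial ribosomal protein and respiratory chain genes lay below or near the 9.36% of all tested genes. Of 76 mitochondrial ribosomal protein genes 25, 4 and 45 fell in NIC-Prmt1, NIC-Carm1 and NIC-Prmt6 and 0 rose (medians -0.32, -0.15 and -0.49). Of 38 proteasome subunit genes 23, 9 and 27 fell and 0 rose (medians -0.36, -0.28 and -0.53). Of 74 nuclear-encoded respiratory chain genes 37, 7 and 62 fell and 2, 1 and 2 rose (medians -0.39, -0.26 and -0.66). With nearly identical libraries averaged, lower genes of these 3 lists numbered 10, 9 and 12 in NIC-Prmt1, 0 in each list in NIC-Carm1 and 6, 7 and 20 in NIC-Prmt6, where 7.60%, 1.62% and 3.77% of all tested genes were lower. Averaging gave 0, 0 and 1 lower genes in the 3 comparisons in the elongation list, 6, 0 and 3 among initiation factors, 6, 0 and 0 in ribosome biogenesis, 4, 1 and 1 for RNA polymerase I, 4, 2 and 1 among the regulators, 1, 0 and 0 among the host genes of small nucleolar RNAs and 1, 1 and 2 among the ribosomal protein genes outside the symbol rule. Where a list had 0 lower genes with averaging, which leaves a single NIC-Prmt6 library, the falls named from it lost their calls. These included Ddx18 and Snhg17 in NIC-Carm1 and NIC-Prmt6, and Eif1ax and Eef1d in NIC-Carm1. The other 1001 tested genes with a principal transcript of at most 1000 bases had medians of -0.19, -0.15 and -0.42. The other 835 with a mean value of at least 5000 had medians of -0.13, -0.21 and -0.09. In NIC-Carm1 against NIC, 55 of 76 cytosolic ribosomal protein genes and 4 of 76 mitochondrial ones were lower, and in NIC-Prmt6 against NIC the medians of the cytosolic ribosomal protein and respiratory chain genes were -0.68 and -0.66; no test set one list against another. The part of transcript length in these values was not tested.

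**Figure D5:**
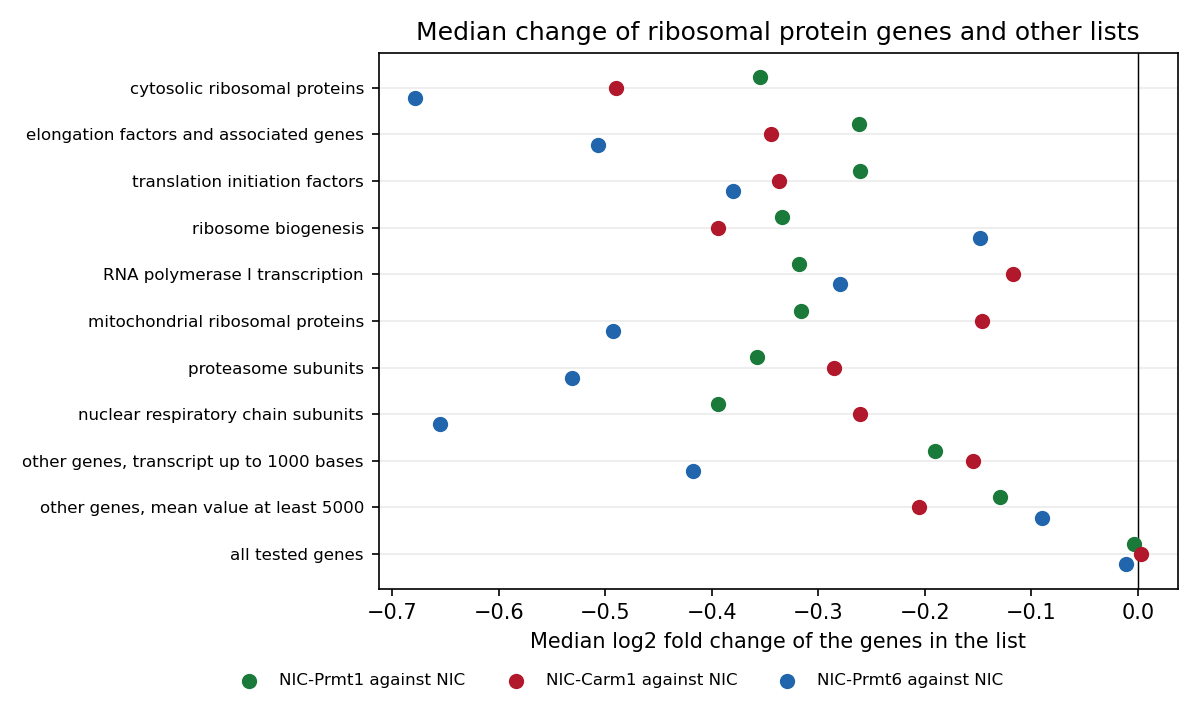
Median log2 fold change (horizontal axis) of the cytosolic ribosomal protein genes and of other gene lists (rows) in the 3 comparisons with NIC, 1 point per list and comparison, with no error drawn since members of a list are not replicates. The ribosomal protein genes lie at -0.36, -0.49 and -0.68 in NIC-Prmt1, NIC-Carm1 and NIC-Prmt6, while all tested genes lie within 0.02 of 0.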

How the data were processed

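RNA was measured by poly-A sequencing of 10 libraries (TruSeq kit, per the labels' protocols). Per the submitters' processing notes, the authors aligned reads to mm10 with TopHat2 2.0.10, counted them with HTSeq 0.6.0 and used DESeq 1.18.0; the sources used here do not give the annotation, strand setting or handling of multiply matching reads. The deposited signal is a normalised read count per gene, a whole read count divided by a size factor per library: 100% of values were whole multiples of the library's smallest step within 0.01, and multiplying gave recovered reads.

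The main test was limma-trend (limma 3.58.1, R 4.3.3) on log2(value + 1) for genes that reached 10 in 2 or more libraries, with all 10 libraries, 4 group means, 6 residual degrees of freedom and Benjamini-Hochberg adjustment over 15694 genes; fold changes are on that scale and understate changes of low genes. The design named edgeR for raw counts; the file held normalised values, so edgeR 4.0.16 and DESeq2 1.42.0 on recovered reads were alternatives, besides rescalings, pseudocounts, filters, a replicate block, 2 groups alone and leaving out libraries. limma was tested on simulated data. Named genes are the 4 members with the largest and smallest changes (mean value at least 100), members called against the majority, stalk, MDM2-binding and methyltransferase substrate genes, paralogs, and from other lists those with the smallest adjusted p; some genes under this rule are not reported here, and the other genes printed were chosen after their values were seen. Members and lists were chosen with earlier results of these data known. Gene positions are from GENCODE M21 (GRCm38) and promoters from RefSeq. Marker sums are recovered reads scaled to counts relative to the library total (CPM). No library numbers pair the samples: correlations of same-numbered libraries ran from -0.132 to 0.1.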

Additional observations from a re-analysis of the deposited data

How the results depend on the processing

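In NIC-Prmt1 against NIC the 21 lower members became 9 with upper-quartile rescaling, 4 with rescaling by the total, 2 in the 2 groups alone, 48 with DESeq2 and 2 with nearly identical libraries averaged, and 1 to 65 without one library; the 1 higher member became 0 without NIC-Prmt1 replicates 1 and 3 together and 0 to 1 without one library. In NIC-Carm1 against NIC the 55 lower members became 12 with rescaling by the total (median -0.31) and 0 with averaging, and 2 to 73 without one library. In NIC-Prmt6 against NIC averaging left 0 higher and 10 lower, and leaving out a library 0 to 1 higher and 37 to 72 lower. In NIC-Prmt1 against NIC-Carm1, higher members numbered 1 with rescaling by the total, in the 2 groups alone and with averaging, 0 without NIC-Prmt1 replicates 1 and 3 together, 6 with DESeq2 and 1 to 2 without one library; lower members numbered 1 with rescaling by the total, DESeq2 and the replicate block, and 0 to 1 without one library. In NIC-Prmt6 against NIC-Carm1, lower members numbered 11 with upper-quartile rescaling, 20 with rescaling by the total, 1 with a pseudocount of 5, no filter or the replicate block, 31 in the 2 groups alone, 5 with DESeq2, 0 with averaging, 29 without NIC-Prmt1 replicates 1 and 3 together and 0 to 16 without one library; higher members numbered 2 in the 2 groups alone, with DESeq2 and without those 2 libraries, and 0 with averaging. In NIC-Prmt1 against NIC-Prmt6, higher members numbered 6 with upper-quartile rescaling, 5 with rescaling by the total, 31 with DESeq2, 1 without those 2 libraries and 0 to 55 without one library. The cause was not tested, except that leaving out or averaging libraries leaves fewer residual degrees of freedom. In NIC-Prmt1 against NIC, 11.9% of all tested genes were lower with upper-quartile rescaling and 8.75% with rescaling by the total. The share was 7.77% in the 2 groups alone, 16.4% with DESeq2 and 7.6% with averaging. In NIC-Carm1 against NIC it was 5.12% with rescaling by the total and 1.62% with averaging. In NIC-Prmt6 against NIC-Carm1 the share of all tested genes lower was 22.8% with upper-quartile rescaling and 23.2% with rescaling by the total. That share was 22.1% in the 2 groups alone and 20.2% with DESeq2. In NIC-Prmt1 against NIC-Prmt6, higher genes among the 15694 tested numbered 577 with upper-quartile rescaling, 426 with rescaling by the total and 835 with DESeq2. Every median kept its sign in all alternatives run. Rescaling by the total moved the all-gene median by 0.13 in NIC-Prmt1, 0.18 in NIC-Carm1 and 0.10 in NIC-Prmt6. The read share was 5.98%, 4.81% and 7.37% in NIC-Carm1, NIC-Prmt6 and NIC without the 10 most abundant other genes. The replicate block gave 26, 48 and 72 lower members in the 3 comparisons with NIC; 2 of 6 libraries correlated best with their own number. No named member that the main test called reversed its sign, and sign changes of members it did not call were not counted. Of 2840 named values, 117 gained and 207 lost a call. The alternative without 2 libraries was chosen after seeing the data. Low counts limit above all Rps27, Rpl34, Rpl30 and Rps4l.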
